A study of Homo sapiens with 12 samples.

Results

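Daoy cells in ordinary control medium were described here from the 6 arrays labelled DMEM, out of the 12 arrays of the series. Daoy is an established human medulloblastoma (MB) line, and MB is a tumour that arises in the cerebellum and its surroundings. All cells of the series were grown in DMEM-based medium with fetal bovine serum and an antibiotic-antimycotic. The DMEM cultures received no astrocyte medium and are the controls for cells grown in medium collected from rat astrocytes (ACM). RNA was taken after 1 passage (P1 DMEM, 3 arrays) or 3 passages (P3 DMEM, 3 arrays) of 48 h each, and all values come from a single line kept on plastic. The 6 arrays were chosen by their labels, and every named gene on them was kept, which gave 19740 genes.

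Each array held 1 Cy3-labelled sample, and the brightness (intensity) of a probe was taken as the level of its transcript. A level is log2 of that intensity, set relative to the 75th percentile of its own array, so 0 is the brightness that 75% of the probes of an array did not pass and a step of 1 is a doubling. A gene was followed through its brightest probe. Levels of different genes also depend on how well each probe binds, so the order of genes given here is a description and was not tested. Nothing in the labels says how separate the cultures were, and p-values measure the spread between these samples.

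Values about the arrays as a whole bear on what follows. The labels conflict: the table of processed values that the authors also deposited has 6 columns labelled DMEM, and only 2 of them (2 of 6) rank their probes as an array labelled DMEM in the scanner output, while the other 4 rank as arrays labelled ACM, with Spearman correlations of at least 0.99997. P1 DMEM replicate 3 and P3 DMEM replicate 1 are the arrays called DMEM in both places, but the passage conflicts for the latter, whose values stand in the table as P1 DMEM replicate 1. The labels of the scanner output were followed here. The labels name no slide, so arrays that share a scan identifier in the header of the scanner output were taken to share a slide. By this the 6 arrays lay on 2 slides. P1 DMEM replicates 1 and 2 were on 1 slide (slide 2), and P1 DMEM replicate 3 and the P3 DMEM arrays on another (slide 3). The share of probes that the scanner software called well above background was 74.3% to 80.4% on the former and 88.1% to 91.0% on the latter, and the dimmest intensity that earned this call was 31.5 to 42.7 against 9.97 to 14.0. Spearman correlations over all probes were 0.972 to 0.992 for the 15 pairs of DMEM arrays, and 0.960 to 0.989 for the 36 pairs of a DMEM and an ACM array. At the bright end these differences had little weight: of the 100 brightest genes, 96 were also among the 100 brightest on the 2 arrays called DMEM in both places, 91 in the columns of the table labelled DMEM and 91 on the 6 ACM arrays.

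As background, a cell line in fast growth gives much of its messenger RNA to ribosomes, the cytoskeleton and energy metabolism. The identity of a cell is set by transcription factors, whose transcripts are often scarce, and is read from them and from the receptors and secreted proteins it makes. Cerebellar granule neuron precursors, from which the hedgehog-driven form of MB arises, are known for ATOH1 and the ZIC factors.

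A probe of the gene was well above background on every DMEM array for 15748 of the 19740 genes (79.8%). No probe of the gene was so on any of the 6 arrays for 963 genes (4.88%), and 3029 genes (15.3%) were above background on some arrays. Without P1 DMEM replicates 1 and 2, where this call needed a higher intensity, 17778 genes were on every array and 986 on none. Calls on only some arrays, here and below, therefore depend on which arrays are counted. The median level of all genes was −1.46, the highest was 7.26 and the lowest −9.13, and 6668 genes (33.8%) had a level above 0. The call of the software is lenient, since a gene can pass it at a level of −6, and levels are therefore given beside each call. Replicates spread by a median SD of 0.26 among the 6580 genes of the brightest tertile and 0.45 among those of the dimmest (n = 6 arrays).

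By mean level the brightest named gene was TGFBI, a secreted matrix protein induced by TGF-beta. Its level was 7.06, 7.16 and 7.06 on the P1 arrays and 7.31, 7.76 and 7.20 on the P3 arrays, with a mean of 7.26 ± 0.26 (SD, n = 6). It was highest on P3 DMEM replicate 2 and close to 7 on the P1 arrays. TGFBI was not first on every array: on P1 DMEM replicate 3 SLC66A1 (7.505), ACTB (7.34), RPS2 (7.30) and others were higher. RPS2 (7.33) was also higher on P3 DMEM replicate 1. The brightest probe for 28S ribosomal RNA (RNA28SN5) was higher than TGFBI on both of these arrays and on P1 DMEM replicate 1. In order of mean level TGFBI led. It was followed by RPS2, a protein of the small ribosomal subunit, at 7.15 ± 0.25, the cytoskeletal actin ACTB at 7.05 ± 0.30, SLC66A1, a lysosomal transporter, at 6.97 ± 0.48, and the intermediate filament vimentin (VIM) at 6.92 ± 0.35. EEF1A1, which brings tRNAs to the ribosome, was at 6.85 ± 0.20. CAVIN1, a coat protein of caveolae, was at 6.75 ± 0.26, the prolyl isomerase PPIA at 6.59 ± 0.31 and the antizyme OAZ1, which limits polyamine synthesis, at 6.45 ± 0.28. Of the 30 brightest genes, 13 belonged to the list of ribosomal proteins and translation factors, and of the 100 brightest 50 did. These counts are of named genes. When accessions without a symbol were ranked with them, such accessions took 29 of the first 100 places.

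**Figure D1:**
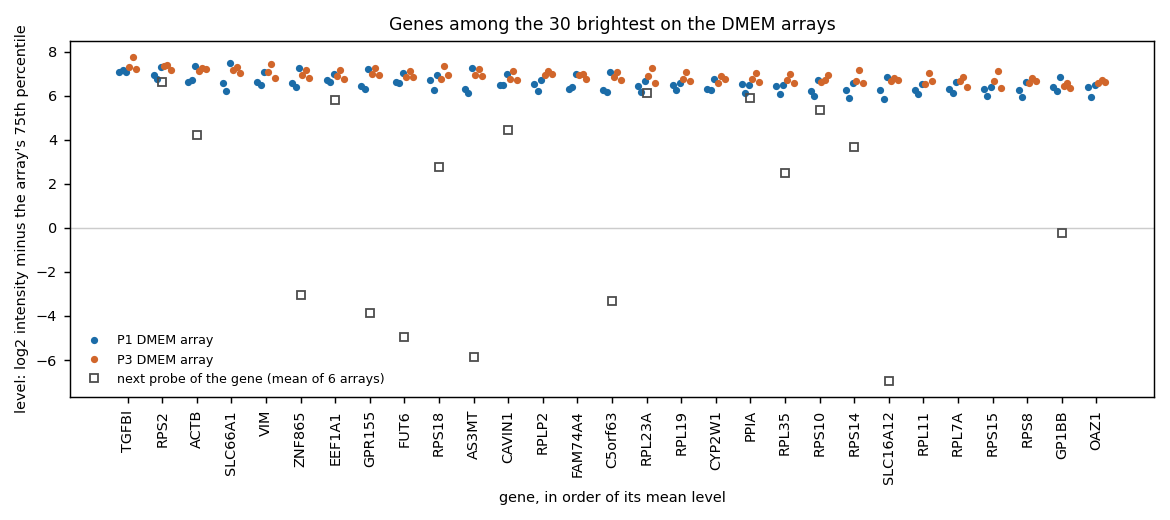
Genes among the 30 brightest (x axis, in order of mean level) with the level on each of the 6 DMEM arrays (y axis, log2 intensity relative to the 75th percentile; blue P1, orange P3) and, as an open square, the mean of the next brightest probe of the same gene. The points of a gene lie close together, whereas the next probe of 7 genes, such as SLC16A12 at −6.96, lies more than 5 below.

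Some of the names at the top rested on 1 of several probes that disagreed. Of the 18 genes among the 30 brightest with more than 1 probe, 7 had their next probe more than 5 lower on the log2 scale. They were ZNF865 (6.86 and −3.05), GPR155 (6.85 and −3.89), FUT6 (6.84 and −4.94), AS3MT (6.79 and −5.87), C5orf63 (6.69 and −3.31), SLC16A12 (6.51 and −6.96) and GP1BB (6.47 and −0.25). None of the 7 is known as a gene of general high expression, and FUT6, which adds fucose to cell surface sugars, and GP1BB, a platelet receptor subunit, are known from specialised cells. Which probe measures the transcript was not tested, because the probe sequences were not used here. In contrast, the 3 probes of FTH1, the heavy chain of ferritin, were at 6.44, 6.43 and 5.99. Over all 4994 genes with several probes the gap between the brightest and the next had a median of 1.80 and passed 5 for 418 genes (8.37%). Among the 100 brightest it did for 15 of 57 (26.3%). Genes were ranked by their brightest probe, and dim genes have little room for such a gap, so a higher share at the top is partly built into the ranking. SLC66A1, FAM74A4 (6.72 ± 0.31), CYP2W1 (6.60 ± 0.27) and the other 9 genes with a single probe among the 30 brightest have no second probe to set beside it.

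Ribosomal proteins and translation factors were uniformly bright. All 85 genes of the list were well above background on every array, 84 were above 0 and the median was 5.88, beside −1.46 for all genes. RPS18 (6.82 ± 0.36), RPLP2 (6.74 ± 0.33), RPL23A (6.67 ± 0.38) and RPL19 (6.62 ± 0.28) were among the brightest, and RPL27A (−1.45) was the dimmest. Transcripts of these genes have many processed pseudogenes, so single genes of the list are uncertain. All 16 glycolytic genes measured were above background on every array, from GAPDH at 5.92 ± 0.12, LDHB at 5.39 ± 0.36, ENO1 at 5.21 ± 0.17, TPI1 at 5.12 ± 0.22 and LDHA at 4.81 ± 0.43 to ALDOC at −3.69. The 42 genes of the cytoskeletal and contractile list had a median of 3.95. TUBA1B, an alpha tubulin, was at 6.40 ± 0.22 and TUBA1C at 6.04 ± 0.13. The list also held LGALS1, a galectin and not itself a cytoskeletal protein, at 6.10 ± 0.12. The smooth muscle genes of the list were far lower, with ACTA2 at 0.29 ± 0.85, TAGLN at −0.06 and CNN1 at −0.36.

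**Figure D2:**
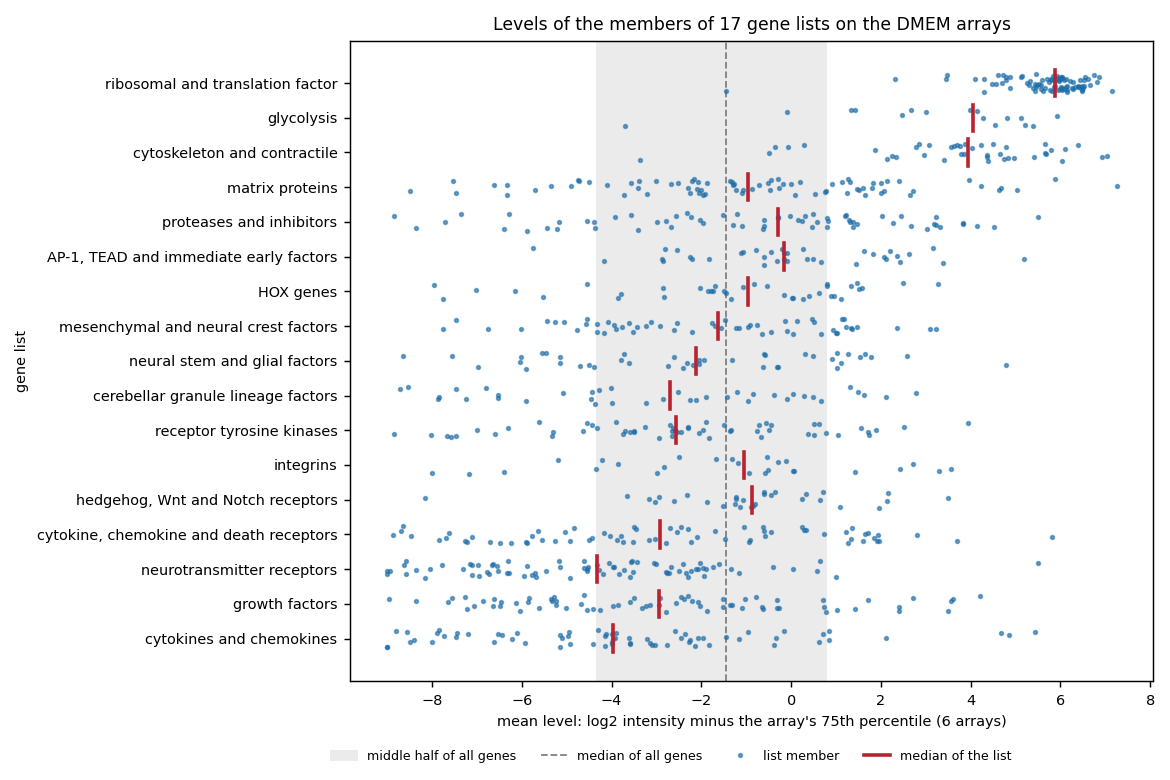
Mean level on the 6 DMEM arrays (x axis, log2 intensity minus the 75th percentile) of each member of 17 gene lists (y axis), with the median of the list as a red bar, the median of all genes (−1.46) as a dashed line and the middle 50% of all genes in grey. The translation, glycolysis and cytoskeleton lists lie to the right with medians of 5.88, 4.05 and 3.95, and neurotransmitter receptors lie to the left with a median of −4.32.

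Promoters are shown here because genes at the ends of the range differed in the DNA before their starts. In mammals many promoters carry dense CG pairs (CpG islands), which are usual for genes used in all tissues, whereas promoters of tissue-restricted genes often lack them. The 120 bases before the start (RefSeq, GRCh38.p14, first start listed for a gene, written on the strand of the gene) of 4 bright genes and 3 genes at background are given with every CG in capitals. TGFBI and EEF1A1 were among the 30 brightest, MET and CCN2 are described with the receptors and growth factors, and FSHB, PRL and GABRA6 were above background on no array.
TGFBI, chr5:136028868-136028987, plus strand: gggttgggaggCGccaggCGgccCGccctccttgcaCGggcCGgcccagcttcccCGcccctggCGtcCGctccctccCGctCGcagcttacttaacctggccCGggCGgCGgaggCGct
EEF1A1, chr6:73521033-73521152, minus strand: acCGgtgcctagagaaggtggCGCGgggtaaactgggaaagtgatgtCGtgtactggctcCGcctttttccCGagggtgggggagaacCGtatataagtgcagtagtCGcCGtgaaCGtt
MET, chr7:116672076-116672195, plus strand: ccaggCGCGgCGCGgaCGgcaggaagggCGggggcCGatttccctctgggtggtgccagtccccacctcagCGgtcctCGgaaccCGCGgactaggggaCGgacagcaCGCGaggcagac
CCN2, chr6:131951373-131951492, minus strand: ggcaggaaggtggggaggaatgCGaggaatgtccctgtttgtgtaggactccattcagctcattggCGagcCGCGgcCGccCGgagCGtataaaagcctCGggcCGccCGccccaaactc
FSHB, chr11:30230894-30231013, plus strand: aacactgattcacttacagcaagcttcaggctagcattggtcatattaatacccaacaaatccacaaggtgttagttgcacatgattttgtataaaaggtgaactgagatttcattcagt
PRL, chr6:22297037-22297156, minus strand: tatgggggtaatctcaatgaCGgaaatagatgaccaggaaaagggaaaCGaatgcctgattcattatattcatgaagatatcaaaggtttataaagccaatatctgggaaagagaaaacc
GABRA6, chr5:161685601-161685720, plus strand: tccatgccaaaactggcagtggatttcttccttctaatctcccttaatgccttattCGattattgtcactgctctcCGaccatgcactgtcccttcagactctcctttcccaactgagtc
The windows of TGFBI and MET hold 14 CG pairs each, those of EEF1A1 and CCN2 10 each, those of PRL and GABRA6 2 each and that of FSHB none (0). Such windows overlap between bright genes and genes at background: that of FUT6 holds 2 and that of VIM 5, while those of HNF4A and GLRA2 hold 5 each and that of SAG 3, all of the latter above background on no array.

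The same held over all genes, as a description. A promoter was matched for 14577 of the 18150 protein-coding genes (80.3%). In the 250 bases before the start the median number of CG pairs was 21 in the brightest quintile of the genes, 22, 20 and 15 in the quintiles below it and 5 in the dimmest. It was 20 for the 11984 genes above background on every DMEM array and 3 for the 625 above background on none. The share of promoters with at most 5 CG pairs was 14.4% in the former and 65.6% in the latter. TATAAA, searched on the strand of the gene between 40 and 15 bases before the start, was found in 2.70% and 8% of them, and in 3.62% of all. There were exceptions among the 100 brightest genes, of which TUBA1C had 1 CG pair in its 250 bases, RPL6 had 2, FUT6, C1orf198 and EIF3C had 3 each and VIM had 8. Genes of the same level also differed widely, with an interquartile range of 15 to 29 CG pairs in the brightest quintile.

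**Figure D3:**
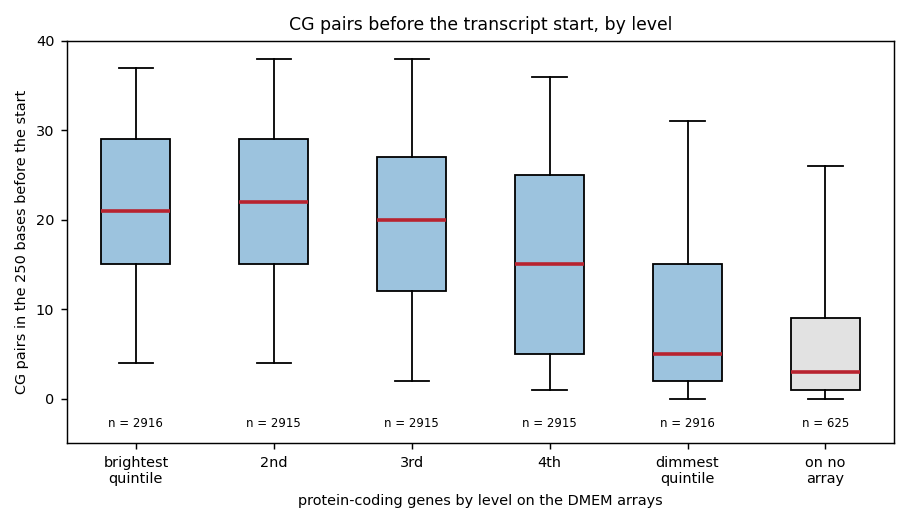
CG pairs in the 250 bases before the transcript start (y axis) for protein-coding genes in quintiles of level on the DMEM arrays and for genes well above background on no array (x axis). Boxes hold the middle 50% of genes, red lines are medians and whiskers reach the 5th and 95th percentiles; the median falls from 21 in the brightest quintile to 5 in the dimmest and 3 in genes on no array.

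Ribosomal protein transcripts begin within a run of pyrimidines, which is known to place their translation under growth control. To show it, the 30 bases around the start (15 before and 15 after it) of 4 such genes are given with CTTTCC in capitals.
RPS14, chr5:150449725-150449754, minus strand: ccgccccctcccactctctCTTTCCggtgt
RPL7A, chr9:133348203-133348232, plus strand: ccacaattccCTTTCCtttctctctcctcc
RPS10, chr6:34426055-34426084, minus strand: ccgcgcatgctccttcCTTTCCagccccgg
RPL31, chr2:101002274-101002303, plus strand: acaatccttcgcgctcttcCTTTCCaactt
On the strand of the gene CTTTCC stood in this window in 16 of 62 ribosomal protein genes (25.8%) and in 226 of all 14577 (1.55%). RPS14 was at 6.52 ± 0.42, RPL7A at 6.49 ± 0.27, RPS10 at 6.54 ± 0.35 and RPL31 at 6.42 ± 0.41.

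Among lineage factors, genes of cerebellar granule neurons and their precursors were mostly low. Of the 38 factors on this list 27 (71.1%) were above background on every array and 9 (23.7%) had a level above 0, beside 79.8% and 33.8% of all genes, and the median was −2.70. ATOH1, the defining factor of granule precursors, was at −7.84, −8.40, −8.20, −7.71, −8.31 and −6.70 on the 6 arrays in order, and above background on 1 of them. NEUROD1, which acts in differentiating granule neurons, was at −7.84 ± 0.74 and also above background on 1 array. ZIC1 was at −5.07 ± 0.28 on 5 arrays, LHX5 (−8.71) and NEUROD6 (−8.54) were above background on none. Other members were well expressed. EN2, a homeobox factor of the midbrain and cerebellum, was at 2.37, 2.23, 2.00, 2.46, 1.79 and 1.87, a mean of 2.12 ± 0.27 that 87.9% of genes did not reach. LHX1 (1.32 ± 0.25) was above 0, as was LHX2, and ZIC5 (−0.08 ± 0.17) and PAX6 (−0.38 ± 0.50) were near it. FOXP4 was brightest at 2.79 ± 0.42, but its second probe was at −1.72. OTX2 (−4.43 ± 0.23), BARHL1 (−4.02 ± 0.12) and EOMES (−4.36 ± 0.20) were above background on every array at low levels.

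The HOX genes, which pattern the trunk and the hindbrain and are not used in the cerebellum proper, were detected in most cases, as were all genes. Of 38 measured, 34 (89.5%, beside 79.8% of all genes) were above background on every array and the other 4 on some, with a median of −0.95, beside −1.46. HOXA7 was brightest at 3.44, 3.20, 2.85, 3.28, 3.84 and 3.08, a mean of 3.28 ± 0.34. It was followed by HOXA3, HOXA10 (1.57 ± 0.87), HOXC4 (1.51 ± 0.20) and HOXA2 (1.46 ± 0.25). All 4 clusters were represented, with medians of 0.53 for the 10 HOXA genes, −0.61 for 10 HOXB, −1.33 for 9 HOXC and −1.50 for 9 HOXD genes. HOXD12 (−7.97), HOXC11 (−7.76) and HOXB1 (−7.02) were lowest in their clusters. HOXA3 did not stay level over the arrays, at 3.33, 3.15, 2.51 and 3.01 on P1 DMEM replicates 1 to 3 and P3 DMEM replicate 1 but 1.29 and 1.71 on P3 DMEM replicates 2 and 3, and HOXA10 had the same 2 low arrays.

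Factors of mesenchymal and neural crest cells lay near all genes as a list. Of 56 measured, 49 (87.5%, beside 79.8%) were above background on every array and 17 (30.4%, beside 33.8%) above 0, with a median of −1.63, beside −1.46. RUNX3 was at 3.22 ± 0.24 (its second probe at 0.63), and FOXD1, a factor of stromal progenitors, at 3.10 ± 0.25. SNAI1 (1.23 ± 0.27) and SNAI2 (1.19 ± 0.27), repressors of epithelial genes, differed by less than their spread. DLX1 (1.46 ± 0.34) and NR2F2 (1.35 ± 0.44) were also above 0.

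Of the neural stem and glial factors, 32 of 42 (76.2%, beside 79.8% of all genes) were above background on every array. Above 0 were 12 (28.6%, beside 33.8%), and the median was −2.12. ID1, an inhibitor of basic helix-loop-helix factors that answers to BMP signals, led at 4.79 ± 0.29, with ID3 at 2.59 ± 0.30. NFIB was at 1.64 ± 0.27 with its second probe at 1.64, and SOX11 at 1.54 ± 0.21. SOX9 (−0.62 ± 0.87), HES1 (−1.95 ± 0.39) and OLIG2 (−5.15 ± 0.74) were below 0, and MYT1L (−8.65) was above background on no array. Among pluripotency factors ZFP42 (2.53 ± 0.32), UTF1 (2.42 ± 0.24) and MYC (1.76 ± 0.49) led, NANOG was at −5.69 on 4 arrays and PRDM14 (−8.85) on none.

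**Figure D4:**
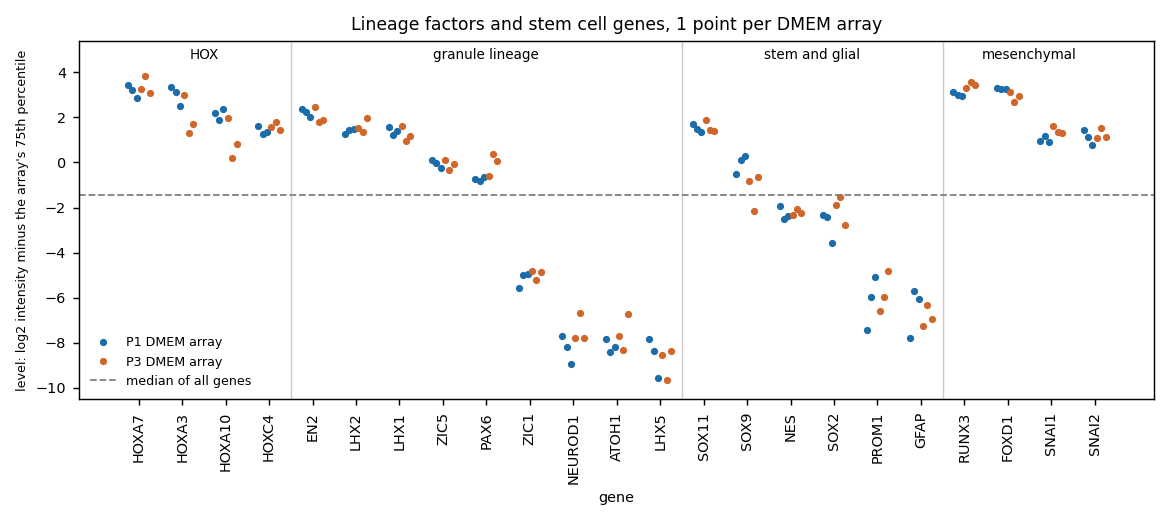
Level of selected lineage factors and stem cell genes (x axis) on each of the 6 DMEM arrays (y axis, log2 intensity minus the 75th percentile; blue P1, orange P3), with the median of all genes as a dashed line. HOXA7, EN2 and RUNX3 lie above 0 on every array, NES and SOX2 lie near the median of all genes and ATOH1, NEUROD1 and LHX5 lie below −6.

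The genes that the study followed by name were mostly of low or middle level in control medium. PROM1, which encodes the stem cell marker CD133, was at −7.42, −5.98, −5.08, −6.60, −5.96 and −4.81 and above background on 4 of 6 arrays. Its mean of −5.98 ± 0.96 was higher than that of 14.3% of genes. NES, the intermediate filament nestin, was at −2.24 ± 0.22 (second probe −2.47) and SOX2 at −2.41 ± 0.72, both above background on every array and just below the median of all genes. POU5F1, which encodes Oct-4, was at −0.76 ± 0.65, but its second probe was at −3.53 and its family holds near-identical pseudogenes. FUT4, which makes the CD15 sugar, was at −2.19 ± 0.25. Of the adhesion molecules, NFASC was at 0.00 ± 0.16, NCAM2 at −2.04 ± 0.14 and L1CAM at −4.99 ± 0.32 with its second probe at −5.34. GFAP, the filament of astrocytes, was at −6.68 ± 0.79 on 4 arrays, and SHH at −5.74 ± 0.24 on 5. ITGAM, which encodes CD11b of microglia, was at 3.56 ± 0.31 through its single probe.

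The markers of MB subgroups gave no single pattern. Above background on every array were 8 of 9 SHH and 6 of 8 WNT members, beside 79.8% of all genes. In Group 3 and Group 4, 6 of 8 and 5 of 8 were. The medians of the SHH, WNT, Group 3 and Group 4 lists were −1.53, −0.63, −3.84 and −4.19, beside −1.46 for all genes. The counts above 0 that follow stand beside 33.8% of all genes. The lists are short, and their difference from all genes was not tested. In the SHH list GLI1, the read-out gene of the hedgehog pathway, was at −3.61, −3.77, −2.34, −2.75, −1.39 and −1.70, and PTCH1 at −0.60 ± 0.43 on the 5 arrays that gave a value. HHIP was at −2.94 ± 0.47, GLI2 at −1.59 ± 0.30, EYA1 at −0.95 ± 0.23 and BOC at −1.53 ± 0.66. SFRP1 (0.34 ± 0.27) and PDLIM3 (2.41 ± 0.60, second probe −3.22) were the 2 of 9 members above 0. In the WNT list, 4 of 8 were above 0, namely the matrix protein TNC (2.41 ± 0.48), LEF1 (1.45 ± 0.34), EMX2 (0.48 ± 0.66) and DKK1 (0.39 ± 0.76). AXIN2, a general target of WNT signalling, was at −4.40 ± 0.35, WIF1 at −4.47 ± 0.74 and DKK2 at −5.97 ± 0.38. In the Group 3 list MYC alone of 8 was above 0, and NPR3 (−4.11 ± 1.67), GABRA5 (−3.57 ± 0.24), IMPG2 (−4.85 ± 0.41) and CRX (−5.75 ± 0.26) were low. None (0) of the 8 Group 4 members was above 0. RBM24 (−1.95 ± 0.58), KCNA1 (−4.50 ± 1.09), UNC5D (−6.29 ± 0.53) and LMX1A (−3.99 ± 0.42) lay between OAS1 at −1.75 ± 0.40 and KHDRBS2 at −8.99, the latter above background on no array.

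Of the immediate early and stress factors 36 of 37 (97.3%, beside 79.8% of all genes) were above background on every array and 16 (43.2%, beside 33.8%) above 0, with a median of −0.16. ATF4, the factor of the amino acid response, was at 5.20 ± 0.48, CEBPB at 3.38 ± 0.51 and IER2 at 3.16 ± 0.56. HMGA1 (2.63 ± 0.68) and KLF6 (2.43 ± 0.48, second probe −6.71) followed. Of 66 growth control factors 28 (42.4%, beside 33.8%) were above 0. They were led by YBX1 (4.19 ± 0.31), STAT6 (3.39 ± 0.43), SMAD3 (3.23 ± 0.25), HIF1A (3.19 ± 0.47) and RELB (2.85 ± 0.62). GLI3, the hedgehog factor that acts mainly as a repressor, was at 2.09 ± 0.18. Among 48 nuclear receptors NR2F6 (4.23 ± 0.20), ESRRA (2.44 ± 0.23, second probe −2.51) and the glucocorticoid receptor NR3C1 (2.35 ± 0.16) led. The steroid receptors PGR (−7.19) and ESR2 (−7.18) were above background on 3 arrays each, and HNF4A (−8.45) on none.

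Receptor tyrosine kinases were led by MET, the receptor of hepatocyte growth factor, at 4.02, 3.84, 3.62, 4.01, 4.22 and 3.87, a mean of 3.93 ± 0.20. FGFR1 was at 2.51 ± 0.26 (second probe 0.84), EPHB2 at 1.89 ± 0.13 with its second probe at 1.80, AXL at 1.74 ± 0.37 and RYK at 1.71 ± 0.42. Of 58 such genes 46 (79.3%, beside 79.8% of all genes) were above background on every array and 12 (20.7%, beside 33.8%) were above 0. KIT (−7.57), ALK (−7.67), EPHA1 (−8.02) and EPHA6 (−8.85) were above background on no array. In the hedgehog, Wnt and Notch list, 29 of 30 (96.7%, beside 79.8%) were on every array and 9 (30%, beside 33.8%) were above 0. NOTCH2 was at 3.49 ± 0.07, SMO, the signal transducer of the hedgehog pathway, at 2.17 ± 0.31, LGR4 at 2.14 ± 0.30, GAS1 at 1.95 ± 0.96 and FZD1 at 1.08 ± 0.43, while LGR5 (−8.15) was above background on 1 array.

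Of 14 TGF-beta and BMP receptors 3 (21.4%, beside 33.8% of all genes) were above 0. They were ACVR1 at 0.71 ± 0.15 (second probe −1.55), BMPR1A at 0.45 ± 0.29 and TGFBR2 at 0.07 ± 0.34. TGFBR1 was at −2.55 ± 0.13. Integrins beside ITGAM were led by ITGB5 (3.30 ± 0.38), ITGAV (2.71 ± 0.12), ITGB1 (2.43 ± 0.41) and ITGAE (1.42 ± 0.31). ITGB5 and ITGAV form a vitronectin receptor. ITGB2, the obligate partner of ITGAM, was at −4.34.

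Of 68 cytokine, chemokine and death receptors 48 (70.6%, beside 79.8% of all genes) were above background on every array. On none were 5 (7.35%, beside 4.88%), all chemokine receptors (CCR1, CCR2, CCR3, CCR8 and CXCR6). TNFRSF12A, the receptor of TWEAK, was at 3.69 ± 0.42, IL13RA2, a decoy receptor of interleukin 13, at 2.81 ± 0.16 and TNFRSF1A at 1.97 ± 0.10. TNFRSF21 was at 1.93 ± 0.57. LEPR stood above them at 5.80 ± 0.28, yet its other 3 probes were at −2.82, −3.39 and −6.23. Of the 79 neurotransmitter receptors, 45 (57.0%, beside 79.8%) were on every array and 5 (6.33%, beside 33.8%) were above 0. On none were 9 (11.4%, beside 4.88%), including GABRA6, GABRA4, GABRB1, GLRA2 and GRIK1. HTR7, a serotonin receptor, was at 1.00 ± 0.61 and GABRE at 0.58 ± 0.18. GRM5 was at 5.51 ± 0.08 with its second probe at −6.28, and ADRA1A (0.65) and GRIA4 (0.04) also had a second probe below −4.

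The brightest secreted proteins included matrix components. Of 78 matrix genes 68 (87.2%, beside 79.8% of all genes) were above background on every array and 31 (39.7%, beside 33.8%) above 0, with a median of −0.97. After TGFBI came COL6A1, a chain of collagen VI, at 6.22, 5.76, 5.68, 6.03, 5.60 and 5.98, a mean of 5.88 ± 0.24. COL1A1 was at 5.02 ± 0.16, COL5A1 at 4.68 ± 0.24 (second probe 0.27) and LAMB1, a laminin chain, at 4.64 ± 0.41. COL1A2 was at 4.23 ± 0.47 and fibronectin (FN1) at 2.65 ± 0.21. The cartilage collagens COL2A1 (−6.61) and COL11A1 (−8.49) were low, the latter above background on no array. SERPINH1, the collagen chaperone, led the proteases and inhibitors at 5.49 ± 0.36, followed by TIMP2 (4.53 ± 0.28), HTRA1 (4.13 ± 0.70), PLAU (3.83 ± 0.36, second probe −0.98) and IGFBP7 (3.83 ± 0.53). The collagenase MMP13 (−7.70, 2 arrays), the stromelysin MMP3 and the enamel protease MMP20 (both on no array) were at the other end.

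Growth factors were fewer at high levels, with 49 of 71 (69.0%, beside 79.8% of all genes) on every array and 13 (18.3%, beside 33.8%) above 0. The matricellular proteins CCN1 (4.20 ± 0.53) and CCN2 (3.60 ± 0.49), both known targets of YAP and TEAD, were brightest, with VEGFB at 3.56 ± 0.34, ANGPTL2 at 3.49 ± 0.31 and midkine (MDK) at 2.73 ± 0.48. FGF10 and EPGN were above background on no array. In the TGF-beta family FSTL1 (3.80 ± 0.29), INHBA (3.57 ± 0.42), LTBP4 (4.35 ± 0.58, second probe 0.27) and GDF15 (2.45 ± 1.65) were bright. BMP8B was at 5.14 ± 0.21 with its second probe at −7.35, and BMP3 and MSTN were above background on no array. Of 42 Wnt, hedgehog and Notch ligands and antagonists, 21 (50%, beside 79.8%) were on every array. WNT5A led at 2.58 ± 0.33, then DKK3 (1.43 ± 0.48, second probe −2.85), JAG1 (0.72 ± 0.27) and RSPO4 (0.62 ± 0.09), and DKK4, WNT7A, WNT2 and RSPO2 were on no array.

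Of 67 cytokines and chemokines 43 (64.2%, beside 79.8% of all genes) were on every array and 8 (11.9%, beside 33.8%) were above 0. On none were 9 (13.4%, beside 4.88%), among them the lymphocyte cytokines IL2, IL3, IL4, IL9 and IFNG. CCL2, a chemokine that draws monocytes, was at 4.35, 4.98, 5.81, 3.80, 3.94 and 5.22, a mean of 4.68 ± 0.78. P1 DMEM replicate 3 and P3 DMEM replicate 3 were its 2 highest arrays. MIF was at 4.86 ± 0.22 and IL11 at 2.10 ± 0.29. CCL24, an eosinophil chemokine, was at 5.43 ± 0.46 through its single probe. LIF was at 0.84, and its second probe at −4.70.

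The same 2 arrays stood high for other genes of inflammation and stress, which were chosen after their values were seen. CXCL8, a neutrophil chemokine, was at −0.52, 0.51, 2.78, −2.07, −3.25 and 1.55. IL6 was at 0.45, 0.50, 2.56, −0.65, −0.22 and 2.41. TNFAIP3, an inhibitor of NF-kB, was at 0.13, 0.05, 2.40, −0.47, −0.66 and 2.02. Stress genes behaved alike: GDF15 was at 1.08, 0.87, 4.96, 1.87, 1.98 and 3.97 and TRIB3, induced by ATF4, at 0.92, 0.50, 3.81, 1.76, 1.81 and 3.17. P1 DMEM replicate 3 and P3 DMEM replicate 3 were the highest of the 6 for each of these 5 genes, and a mean over the 6 arrays hides this. These 2 arrays shared slide 3 with P3 DMEM replicates 1 and 2, which were lower. Over all 6668 genes above 0, the SD passed 1 for 40 (0.600%).

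A different pair of arrays stood apart for ribosomal RNA. The brightest probe for 28S ribosomal RNA (RNA28SN5) was at 7.27, 6.83, 7.80 and 7.51 on P1 DMEM replicates 1 to 3 and P3 DMEM replicate 1, but at −1.69 on P3 DMEM replicate 2 and 3.64 on P3 DMEM replicate 3. A second 28S probe gave 6.60, 6.52, 7.45 and 6.98 against −2.01 and 3.16, and the 18S probe (RNA18SN5) −1.06, 0.07, 1.09 and −1.44 against −6.90 and −3.03. The low signal was not confined to DMEM arrays. On P3 ACM replicate 3 the brightest 28S probe was at 0.98, against 6.64 to 7.38 on the other ACM arrays. The 18S probe was at −4.88 there, against −2.13 to 1.64. Among the 6 DMEM arrays other non-coding RNAs were also lowest on P3 DMEM replicates 2 and 3, by less: RN7SK was at 4.40, 4.05, 4.59 and 4.53 against 2.69 and 3.76, RPPH1 at 1.86, 1.32, 2.19 and 1.66 against 0.68 and 1.31, and RMRP at −0.25, −0.34, −0.14 and 0.04 against −0.70 and −0.63. RN7SL1, the RNA of the signal recognition particle, was at 5.89 to 6.66 on all 6 arrays. The 2 further, dimmer 28S probes were not low on P3 DMEM replicate 3, at 0.53 and 0.31, their highest values of the 6. Of all 34127 probes, 25 were lower on both P3 DMEM replicates 2 and 3 than on each of the other 4 DMEM arrays by more than 1.5, and 7 were higher, MBD6, FAM177B, RAVER1 and MUC6 being among the lower. HOXA3 and HOXA10 (above), CCL24 (5.75, 5.62, 5.41 and 5.96 against 4.67 and 5.18) and CD79A also had their lowest 2 values there. Both arrays match columns that the deposited table labels P3 ACM. The part of ribosomal RNA content or of the labels in these differences was not tested.

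Markers of other tissues were dim as a class. The 20 tissue lists held 259 measured genes, of which 167 (64.5%) were above background on every array, beside 79.8% of all genes, 36 (13.9%) had a level above 0, beside 33.8%, and 14 (5.41%) were above background on none, beside 4.88%. Their median was −4.10. Liver markers were lowest, with 5 of 15 on every array and a median of −7.06: albumin (ALB) was at −7.37 on 1 array, and APOA2, HNF4A, TTR and FGB were on none. SERPINA1, a protease inhibitor of liver and macrophages, was the 1 of 15 above 0, at 3.30 ± 0.20. Photoreceptor genes had a median of −6.63 with GNAT1 and SAG on no array, adipocyte genes −5.61 with LEP and FABP4 on none, and the pituitary hormones PRL (−8.06) and FSHB (−8.95), whose promoters are given above, were on none. GATA1 and ACTC1, of erythroid and cardiac cells, were on none as well.

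By level, brain markers were not raised as a group beside all genes, of which 33.8% were above 0. Granule neuron markers had a median of −4.58 and none (0) of the 12 above 0. Of 21 neuron markers 2 were above 0, TUBB3, a tubulin of neurons that many tumour lines also make, at 3.63 ± 0.53, and the neurofilament NEFL at 2.73 ± 0.71, while GAD2 was on no array. MAP2 (−6.12) and RBFOX3 (−6.19) were low. Of 12 astrocyte markers GJA1 (1.73 ± 0.34) alone was above 0. Of 12 oligodendrocyte markers CNP (3.75 ± 0.25, second probe −1.45) and CLDN11 (3.28 ± 0.10) were, and MBP was lowest at −5.96. Of these oligodendrocyte markers 11 (91.7%, beside 79.8% of all genes) were above background on every array. Their median of −2.52 lay below the −1.46 of all genes. Endothelial markers had none (0) of 12 above 0, with PECAM1 at −5.42 and CLDN5 at −7.03.

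**Figure D5:**
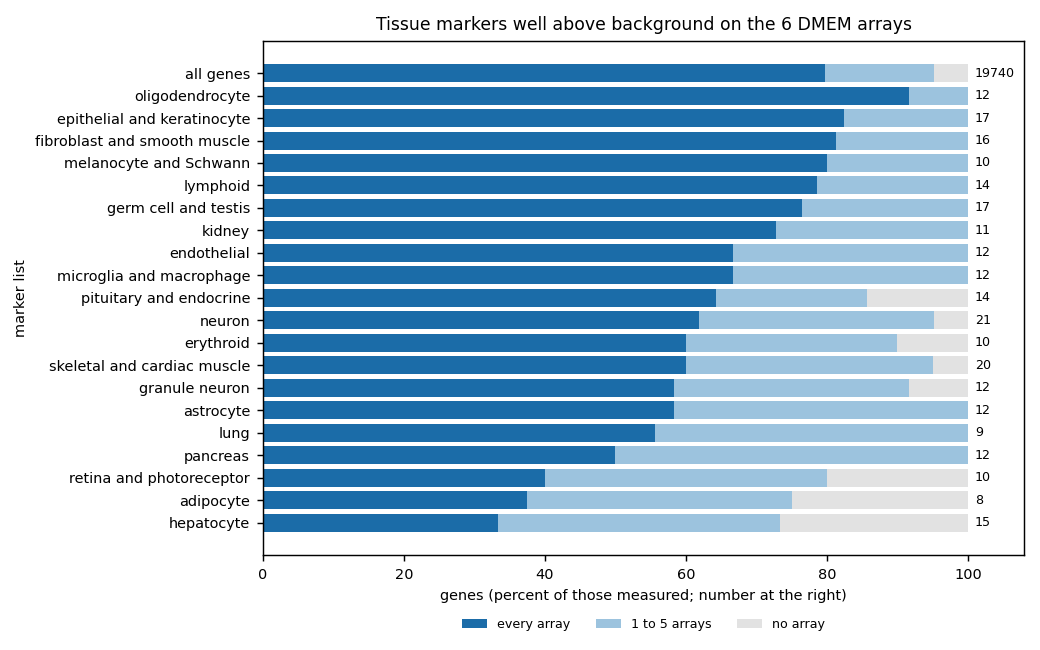
Share of the measured genes of 20 tissue marker lists, and of all genes, that were well above background on every DMEM array, on 1 to 5 arrays or on no array (x axis, percent; number of genes at the right). All genes stand at 79.8% on every array, and hepatocyte markers are lowest with 5 of 15.

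The fibroblast, epithelial and germ cell lists had some bright members, with shares above 0 of 37.5%, 23.5% and 29.4%, beside 33.8% of all genes. Of 16 fibroblast and smooth muscle markers 6 were above 0, among them COL1A1, COL1A2 and THY1, a surface protein of fibroblasts and neurons, at 4.40, 4.50, 4.35, 4.29, 4.74 and 4.56. DCN (−3.72) and LUM (−4.10), proteoglycans of fibroblasts, and the muscle myosin MYH11 (−7.64) were low. Of 17 epithelial markers 4 were above 0, all keratins: KRT18 at 5.71 ± 0.39 (second probe 3.22), KRT10 at 4.22 ± 0.21, KRT7 at 3.29 ± 0.36 and KRT8 at 2.76 ± 0.60. For 2 of these keratins, KRT18 included, the next probe was more than 2 lower. CDH1, the epithelial cadherin, was at −6.97 on 3 arrays and EPCAM at −2.74 ± 0.94. Of 17 germ cell markers 5 were above 0. The cancer-testis genes of the X chromosome are silent in most adult tissues and active in many tumours, and 4 of the 9 on the list were above 0: MAGEA6 was at 4.38 ± 0.21 with its second probe at 2.27, MAGEC1 at 3.51 ± 0.16 (second probe 1.17), MAGEA1 at 3.17 ± 0.22 and MAGEC2 at 1.46 ± 0.16. The others were below 0, with MAGEA4 at −0.47, CTAG2 at −2.10, PAGE1 at −2.30, SSX2 at −3.26 and SSX1 at −6.11. The MAGEA genes are near-identical, so single members are uncertain. Of the genes of the germ line itself DAZL was at 1.59 ± 0.35 on every array, whereas DDX4 (−7.19) and SYCP3 (−6.34) were low.

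Single immune markers were bright while most members of their lists were dim. Of 14 lymphoid markers 11 (78.6%, beside 79.8% of all genes) were above background on every array, 2 were above 0 and the median was −3.63. Of the microglia and macrophage markers 8 were on every array, with a median of −2.89, and no member of either list was at background on all arrays. CD79A, a subunit of the B cell receptor, was at 5.20, 5.44, 4.69, 5.54, 4.12 and 4.56, and CD4 at 3.59, 3.57, 4.02, 4.06, 3.20 and 3.47, but the partner of CD79A in that receptor, CD79B, was at −6.18 and above background on 4 arrays, and the T cell chains CD3E and CD3G were at −2.82 and −7.50. Of 12 microglia and macrophage markers ITGAM alone was above 0, with CX3CR1 at −6.21, P2RY12 at −6.99 and C1QC at −7.42. CD79A, CD4, ITGAM, CCL24 and SERPINA1 each had 1 probe, and their levels on the 6 ACM arrays were of the same order, at 5.07, 3.81, 4.15, 5.58 and 3.63.

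The levels above are means over both passages, and the passages were compared to see whether they hold at each. By limma no gene (0 of 17823, 0% of those tested) differed between P3 DMEM and P1 DMEM at an adjusted p of 0.05, with a smallest adjusted p of 0.442, and 1929 did at an unadjusted p of 0.05. The thresholds of the study (over 2-fold, unadjusted p of 0.05) were passed by 395 genes (2.22%), 242 of them higher and 153 lower in P3. The direction of this split was not stable: 62 were higher and 75 lower after background correction by normexp, 233 and 389 with no filter on dim probes, and 114 and 161 among probes above background on all 6 arrays. In this comparison 2 of the 3 P1 arrays lay on slide 2 and the P3 arrays on slide 3, and with slide as a block 79 were higher and 255 lower. The passage label of P3 DMEM replicate 1 conflicts as well, as given above. None (0) of the 100 brightest genes and of the 85 translation genes passed these thresholds, and their changes had medians of 0.36 and 0.37, beside 0.09 for all genes. Over all lists 50 of 1221 genes passed them (4.10%), 29 higher and 21 lower in P3.

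Among those 50 were COL3A1, a collagen (1.56 ± 0.36 SE on the log2 scale, limma adjusted p = 0.442), ACTA2 (1.30 ± 0.34), IGFBP5 (1.69 ± 0.39) and GLI1 (1.29 ± 0.47), which were higher in P3. SERPINB2 (−1.83 ± 0.50), DKK1 (−1.26 ± 0.26), HOXA9 (−1.02 ± 0.32) and HOXA10 (−1.15 ± 0.43) were lower. None of these passed the adjusted test. HOXA10 had its lowest values on P3 DMEM replicates 2 and 3, the arrays that stood apart for ribosomal RNA. The smallest p values belonged to genes near the background. The probe tested for ARPP21 was above background on no P1 array and on all 3 P3 arrays, at −9.19 to −7.74 and −5.62 to −4.53, which is at least 2.38-fold higher when P1 is set to the lowest signal called above background (limma unadjusted p = 6.18e-05, adjusted p = 0.442). SLITRK5 (−8.03 to −7.75 against −6.60 to −6.16) and PCDH18 (−8.05 to −7.57 against −6.55 to −6.05, in the probe tested) had the same calls, with a bound of 1.00-fold for PCDH18 and none for SLITRK5. The tested probes of ARPP21, SLITRK5 and PCDH18 were kept only through the P3 arrays, where they were high. Their p-values and folds are therefore a description and no support for a change. On P1 DMEM replicates 1 and 2 the call also needed a higher intensity.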

How the data were processed

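Total RNA of Daoy cells was extracted with TRIzol, amplified, labelled with Cy3 and put on Agilent arrays of 1 colour. The scanner output was deposited, in which each spot has an intensity corrected for background by Agilent Feature Extraction 11.0.1.1 and not normalized between arrays, and a table of log2 values of 30569 probes, whose labels conflict with those of the scanner output and which was used as an alternative. Control spots (1377 of 44495) and outlier spots were left out, 33128 probes were spotted once and 999 10 times, and spots of a probe were averaged. Levels are log2 intensities relative to the 75th percentile of each array. No spot was saturated. The number of arrays limits the precision.

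Accessions gave a symbol to 25771 of 34127 probes (75.5%) through RefSeq (GRCh38.p14), for 19740 genes, and 7968 further accessions without a symbol are not described. Genes were ranked through their brightest probe, and called at background only if all their probes were. P3 and P1 DMEM were compared with limma 3.58.1 in R 4.3.3 over the 6 arrays, two-sided, after a test on simulated data. A probe was kept if all P1 DMEM arrays, or all P3 DMEM arrays, called it well above background. Benjamini-Hochberg adjustment was made over all kept probes, those without a symbol included. Genes were counted afterwards, each named gene through a single kept probe, which gave 17823 genes.

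The 48 gene lists, the members and the named genes (the 30 brightest, the 5 brightest and the background members of each list, the lineage, subgroup and study genes, and the 3 smallest p between passages) were chosen with earlier results of these data known. Some of these are not reported here. Promoters came from RefSeq and motifs were exact matches.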

Additional observations from a re-analysis of the deposited data

How the results depend on the processing

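The counts of genes depend on what is called background. In place of 15748 genes on every array and 963 on none, the milder call of the scanner software (positive and significant) gave 17600 and 177, a level above the 99th percentile of the negative control spots gave 13258 and 629, and all 12 arrays gave 15582 and 485. Of the list members 1052 of 1360 were on every array, and 1199 or 839 under the first 2 of these calls. Leaving out each array in turn gave 15748 to 16710 genes on every array and 972 to 1076 on none. Of the 100 brightest genes 63 remained when a gene was given the mean of all its probes and 67 with their median, 91 to 100 under the other settings and 97 to 99 without each array. The use of only the 2 arrays called DMEM by both sets of labels (96 of 100), and of only slide 3 (96), was chosen after seeing the data. Of 362 named genes, 92 moved by more than their SD with the mean of all probes, 111 with normexp and 196 of 352 in the columns of the authors' table labelled DMEM.

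Between passages no fit with all 6 arrays called a gene at the adjusted threshold, and leaving out an array called 0 to 7 (7 without P1 DMEM replicate 3, 2 without P3 DMEM replicate 1). The 395 genes past the thresholds of the study became 137 with normexp, 622 with no filter on dim probes, 167 with the methods' t-test and 41 in the authors' table, and 165 to 907 without each array (875 without P1 DMEM replicate 3, 907 without P3 DMEM replicate 1, 165 without P3 DMEM replicate 2, 238 without P1 DMEM replicate 2). Samples with the same replicate number had correlations of 0.39, −0.03 and 0.54 between their deviations from the group means. Since not every pair was above 0.1, the numbers were not taken to pair the samples, although replicates 1 and 3 did deviate together. With the replicate block there were 494 and 0 at the adjusted threshold, with slide as a block 334, of which 79 were higher in P3. The cause was not tested. Below a level of about −6 signals were near background and changes there have only a direction.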
